A study of Homo sapiens with 12 samples.

Results

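PTGS1, PTGS2, PTGES, ALOX5AP and ALOX15B, 5 genes of eicosanoid synthesis, were followed in MCF10AT cells carrying EP300 hairpins. In both EP300 shRNA lines PTGS2 and ALOX5AP were several-fold higher than in the control lines, and PTGS1 and PTGES were lower. ALOX15B was higher with the first hairpin and lower with the second. Members were taken as the rows of the deposited count table whose accession belongs to these symbols, which gave 5 rows for 5 genes among 28620 rows with a symbol (25021 genes). The genes had been picked with their changes in these libraries already known, so their values with each hairpin are given as a description and carry no test.

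MCF10AT is a human breast epithelial cell line that carries an activated HRAS. The groups are EP300 KD1 and EP300 KD2, stable lines that each express a different shRNA against EP300, the acetyltransferase p300, and the non-silencing controls NS1 and NS2, with 3 libraries each (12 in all). All groups were transduced with lentivirus, selected in puromycin (1 µg/ml for 3 days) and grown in 5% horse serum with epidermal growth factor (20 ng/ml), insulin (10 µg/ml), cholera toxin (1 ng/ml) and hydrocortisone (100 µg/ml). Each hairpin was set against the control of the same number, since the labels do not name its control. The labels do not say whether a line is a pool or a clone or whether replicates came from separate cultures, and the spread behind each p-value is that of the libraries alone and may be technical.

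Eicosanoids are lipid mediators made from arachidonic acid, which phospholipases release from membranes. The cyclooxygenases, PTGS1 (often called COX-1, usually made constitutively) and PTGS2 (COX-2, usually inducible by cytokines, growth factors and cyclic AMP and held down by glucocorticoids), turn it into prostaglandin H2, from which PTGES, the microsomal prostaglandin E synthase, makes prostaglandin E2. Lipoxygenases open the other branch: ALOX5, helped by the membrane protein ALOX5AP (FLAP), starts leukotriene synthesis, and ALOX15B makes 15-hydroperoxy fatty acids. In epithelia, prostaglandin E2 is exported, acts on its receptors, and is taken up by SLCO2A1 and inactivated by HPGD.

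The promoters of PTGS2 and PTGES are shown because these genes lay on opposite sides of their controls with both hairpins and each has a single promoter window in the RefSeq table. Each sequence is the 250 bases before the start from RefSeq (GRCh38.p14), on the minus strand, at chr1:186680424-186680673 for PTGS2 and chr9:129753043-129753292 for PTGES. Capitals mark motif matches.
PTGS2: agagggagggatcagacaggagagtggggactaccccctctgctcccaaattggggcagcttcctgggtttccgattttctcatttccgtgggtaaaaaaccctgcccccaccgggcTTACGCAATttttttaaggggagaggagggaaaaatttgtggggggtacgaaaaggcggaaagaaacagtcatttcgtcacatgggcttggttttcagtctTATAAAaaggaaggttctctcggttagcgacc
PTGES: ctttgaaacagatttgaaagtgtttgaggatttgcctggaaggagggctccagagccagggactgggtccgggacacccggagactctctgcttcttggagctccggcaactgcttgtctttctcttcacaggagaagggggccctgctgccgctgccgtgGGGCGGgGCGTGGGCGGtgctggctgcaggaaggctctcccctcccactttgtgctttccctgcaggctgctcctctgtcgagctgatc
Both strands of both windows were searched for 7 motifs. The PTGS2 window held TATAAA (the TATA box, 32 to 27 bases before the start) and TTNNGNAAT (a C/EBP motif, 133 to 125 bases before). The PTGES window held neither; it held GGGCGG (the GC box) in 2 places and GCGTGGGCG (an EGR1 motif, 82 to 74 bases before the start), which overlaps the second GC box. TGACGTCA (CRE), TGANTCA (AP-1) and the NF-kB consensus matched in neither window. Of all 35116 windows of this length, 10.7% held TATAAA, 9.85% TTNNGNAAT, 42.6% GGGCGG, 0.72% GCGTGGGCG, 1.65% TGACGTCA, 6.57% TGANTCA and 9.96% the NF-kB consensus. A match describes the letters and is not evidence of binding. Only exact matches were sought, so a site that departs from these letters was missed, and a miss does not show that no site is there.

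Library totals ran from 31396653 to 45606950 counts. EP300 itself averaged 107 ± 0.884 CPM (counts scaled to library size with TMM factors) in EP300 KD1 and 172 ± 5.11 in NS1, and 95.8 ± 3.87 in EP300 KD2 and 174 ± 8.14 in NS2 (SD, n = 3 each). The log2 fold changes were -0.68 and -0.86 (edgeR adjusted p = 2.6e-12 and 1.1e-13), and the EP300 shRNA libraries all lay below the controls. Of 8 mammary epithelial markers, all had counts in every group, with summed levels of 4120 to 4190 CPM in EP300 KD1 and 5850 to 5930 in NS1, and 3760 to 3800 in EP300 KD2 and 6850 to 6920 in NS2, although KRT14 averaged at most 1.03 CPM in any group. KRT8 averaged at most 3.32 CPM, but it has several rows, so its reads may be incomplete. With the first hairpin KRT8 and ITGA6 rose (log2 0.59 and 0.09, edgeR adjusted p = 0.00046 and 0.00026), while the other markers fell.

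**Figure D1:**
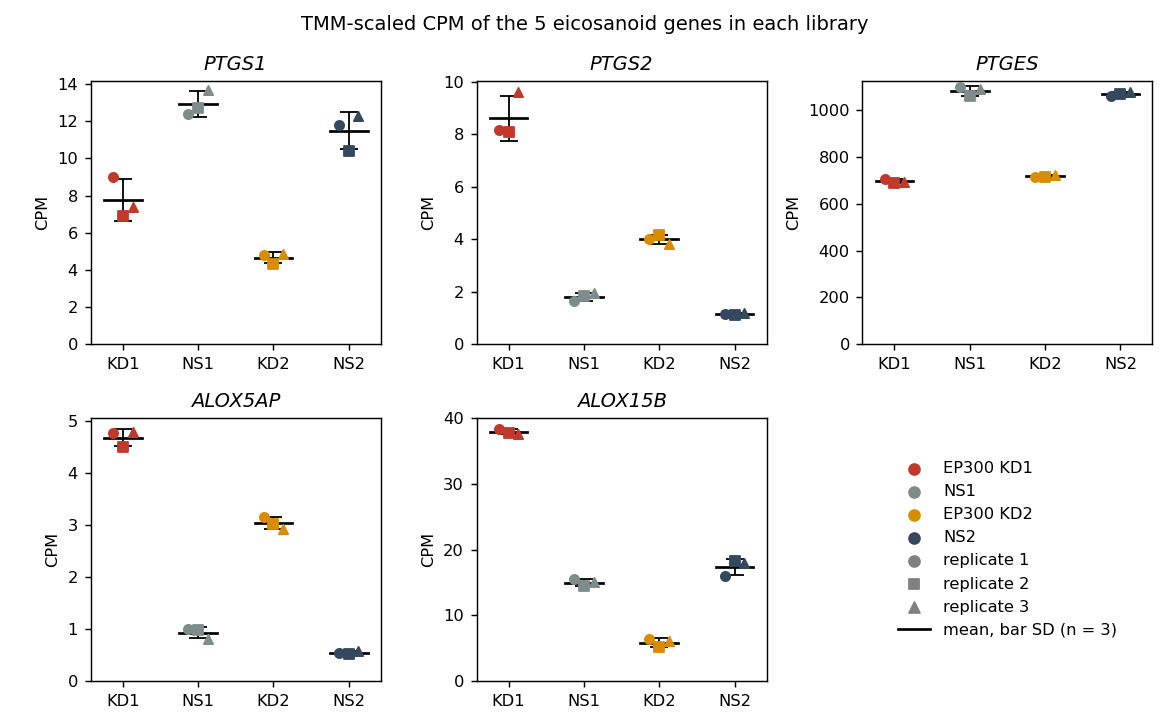
TMM-scaled CPM (y axis, linear) of the 5 genes in every library of EP300 KD1, NS1, EP300 KD2 and NS2 (x axis); points are libraries, lines are means and bars the SD over 3 libraries. PTGS2 and ALOX5AP lie higher and PTGS1 and PTGES lower in both EP300 shRNA groups, and ALOX15B is highest in EP300 KD1 and lowest in EP300 KD2.

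PTGS1, the constitutive cyclooxygenase (NM_001271368; chromosome 9, 122370533 to 122395703, GRCh38), measured 9.02, 6.91 and 7.37 CPM in EP300 KD1 and 12.4, 12.7 and 13.7 CPM in NS1. In the second set it measured 4.78, 4.31 and 4.85 CPM in EP300 KD2 and 11.8, 10.4 and 12.3 CPM in NS2. All libraries of the EP300 shRNA lines were lower than all controls, and EP300 KD2 lay below EP300 KD1. The log2 fold changes were -0.74 ± 0.09 and -1.30 ± 0.10 (SE), which is 1.67-fold and 2.47-fold lower than in the controls. A sense intronic transcript, AL162424.1, lies within PTGS1 on the same strand in GENCODE, and how its reads were counted is not given in the sources used here.

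PTGS2, the inducible cyclooxygenase (NM_000963; chromosome 1, 186671791 to 186680423), moved the other way from its paralogue. It measured 8.15, 8.08 and 9.61 CPM in EP300 KD1 and 1.63, 1.84 and 1.94 CPM in NS1, and 4.02, 4.15 and 3.83 CPM in EP300 KD2 and 1.17, 1.11 and 1.20 CPM in NS2. No library of an EP300 shRNA group overlapped a control library, and EP300 KD1 lay well above EP300 KD2, while NS1 was itself above NS2. The log2 fold changes were 2.25 ± 0.11 and 1.78 ± 0.12 (SE), which is 4.74-fold and 3.44-fold higher. These levels rest on modest counts, from 124 to 331 reads per library in the EP300 shRNA groups and from 37 to 88 in the controls.

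Because the scaling of a library cancels within it, the ratio of PTGS2 to PTGS1 reads was taken in each library. It was 0.904, 1.17 and 1.30 in EP300 KD1 and 0.132, 0.145 and 0.141 in NS1. It was 0.841, 0.962 and 0.790 in EP300 KD2 and 0.0989, 0.107 and 0.0977 in NS2. PTGS2 thus supplied 52.7% ± 4.67 of the reads of this gene pair in EP300 KD1 and 12.2% ± 0.569 in NS1, and 46.3% ± 2.50 in EP300 KD2 and 9.20% ± 0.430 in NS2 (SD, n = 3 each). The read ratio is not corrected for transcript length.

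**Figure D2:**
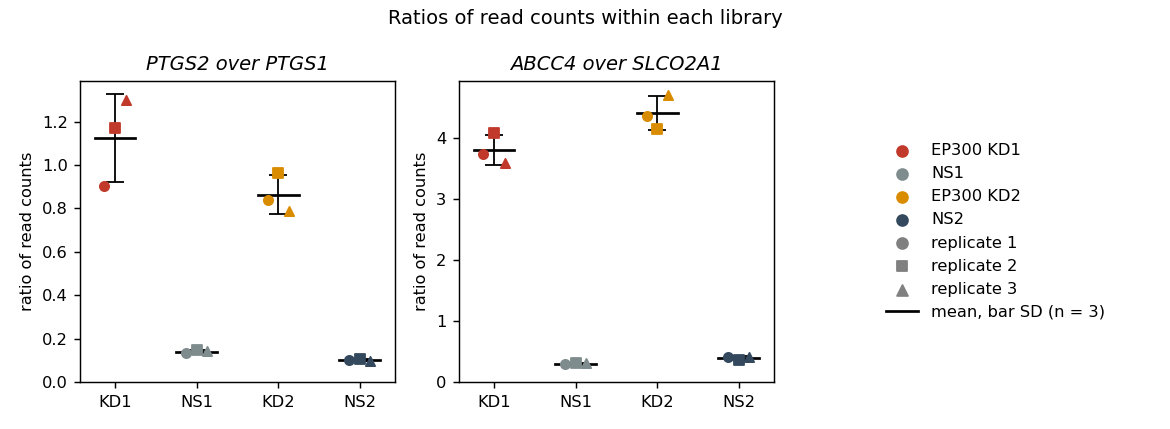
Ratio of read counts within each library (y axis, linear) for PTGS2 over PTGS1 and for ABCC4 over SLCO2A1 in EP300 KD1, NS1, EP300 KD2 and NS2 (x axis); points are libraries, lines are means and bars the SD over 3 libraries. PTGS2 over PTGS1 lies between 0.790 and 1.30 in the EP300 shRNA libraries and between 0.0977 and 0.145 in the controls, and ABCC4 over SLCO2A1 between 3.60 and 4.72 against 0.290 to 0.412.

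PTGES, the terminal synthase of prostaglandin E2 that couples with PTGS2 (NM_004878; chromosome 9, 129738349 to 129753042), was by far the most abundant of the 5 genes and was lower in both EP300 shRNA lines. It measured 708, 691 and 694 CPM in EP300 KD1 and 1100, 1060 and 1090 CPM in NS1, and 714, 714 and 724 CPM in EP300 KD2 and 1060, 1070 and 1080 CPM in NS2. The controls lay close together, and so did the EP300 shRNA lines, with no overlap between the sets. The log2 fold changes were -0.63 ± 0.02 and -0.57 ± 0.02 (SE), or 1.55-fold and 1.49-fold lower. The hairpins' changes differed by 0.06 ± 0.03.

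ALOX5AP, the membrane protein that presents arachidonic acid to ALOX5 and is best known from leukocytes (NM_001204406; chromosome 13, 30713485 to 30764426), was low in the controls and higher in both EP300 shRNA lines. It measured 4.78, 4.50 and 4.79 CPM in EP300 KD1 and 0.992, 0.984 and 0.817 CPM in NS1, and 3.16, 3.02 and 2.93 CPM in EP300 KD2 and 0.537, 0.512 and 0.584 CPM in NS2. The groups did not overlap in either set, although counts in the controls were as low as 17 reads per library. The log2 fold changes were 2.34 ± 0.12 and 2.48 ± 0.14 (SE), or 5.07-fold and 5.56-fold higher.

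The partner of ALOX5AP had few reads. ALOX5, the lipoxygenase it serves, had 0 to 2 reads per library and 7 in all 12, too few for a test. Among 11 leukocyte markers, AIF1, CD163 and TYROBP were at 0 in every library, PTPRC, the pan-leukocyte CD45 gene, averaged at most 0.0182 CPM in any group, and 3 markers were abundant enough to be tested. TYROBP and PTPRC have several rows, so their reads may be incomplete. The summed level of the list was 67.6 to 74.7 CPM in EP300 KD1 and 52.4 to 63.4 in NS1, and 37.9 to 40.2 CPM in EP300 KD2 and 65.9 to 67.7 in NS2, made up mostly of CD14 and CD68. These moved in opposite directions. CD14 fell with both hairpins (log2 -0.65 and -1.62, edgeR adjusted p = 1.6e-08 and 1e-13). CD68 rose with both (log2 1.67 and 0.37, edgeR adjusted p = 1.7e-13 and 0.00026). In bulk RNA, more cells with a transcript and more transcript per cell cannot be told apart.

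ALOX15B, an epithelial 15-lipoxygenase (NM_001141; chromosome 17, 8039059 to 8049134), differed in direction between the hairpins. It measured 38.4, 37.8 and 37.6 CPM in EP300 KD1 and 15.5, 14.4 and 15 CPM in NS1. In the second set it measured 6.35, 5.11 and 6.02 CPM in EP300 KD2 and 16.0, 18.2 and 17.9 CPM in NS2. EP300 KD1 lay above every other library and EP300 KD2 below every other library. The log2 fold changes were 1.34 ± 0.06, or 2.53-fold higher, and -1.57 ± 0.07 (SE), or 2.97-fold lower, and they differed by -2.91 ± 0.09.

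**Figure D3:**
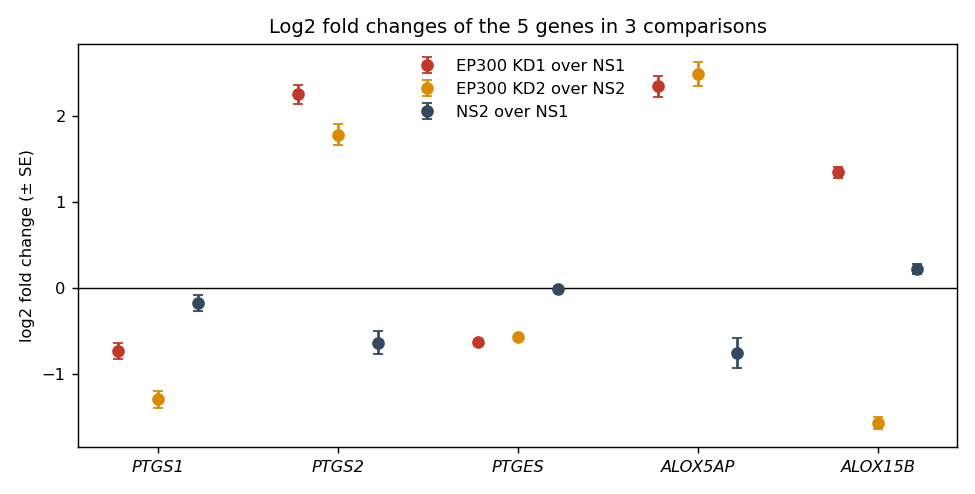
Log2 fold changes with their SE (y axis) of the 5 genes (x axis) for EP300 KD1 over NS1, EP300 KD2 over NS2 and NS2 over NS1, from the fit over all 12 libraries. The changes with both hairpins have the same sign for PTGS1, PTGS2, PTGES and ALOX5AP and not for ALOX15B (1.34 and -1.57), and NS2 over NS1 reaches -0.76 for ALOX5AP.

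All 5 genes passed the filter on low counts and the threshold of 0.05 on edgeR's adjusted p with each hairpin, beside 64.9% of all 13424 genes tested in EP300 KD1 against NS1 and 57.8% in EP300 KD2 against NS2. Libraries of the compared groups did not overlap for any of the 5, beside 67.7% and 63.5% of all genes. Since the genes were picked on these contrasts, nothing is read from these counts.

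The controls were compared with each other next, a contrast not used to pick the genes. Of the 5 genes 3 passed, 1 higher and 2 lower in NS2, beside 27.5% of all genes (14.2% higher and 13.4% lower). PTGS2 was lower in NS2, at 1.16 ± 0.0432 CPM, than in NS1, at 1.81 ± 0.157 (log2 -0.64 ± 0.13, edgeR adjusted p = 0.0013). ALOX5AP was likewise lower, at 0.544 ± 0.0367 CPM in NS2 and 0.931 ± 0.0990 in NS1 (log2 -0.76 ± 0.17, adjusted p = 0.0089). ALOX15B was slightly higher in NS2 (log2 0.22 ± 0.06, adjusted p = 0.014), but this call was lost without NS1 replicate 2 (0.19, adjusted p = 0.053), NS2 replicate 2 (0.18, adjusted p = 0.070) or NS2 replicate 3 (0.20, adjusted p = 0.055). PTGS1 (log2 -0.18 ± 0.09, adjusted p = 0.16) and PTGES (log2 -0.02 ± 0.02, adjusted p = 0.55) did not pass. With both controls pooled, the log2 fold change of PTGS2 was 2.52 for EP300 KD1 and 1.42 for EP300 KD2, and that of ALOX5AP 2.65 and 2.03.

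Levels of different genes were compared as CPM per kb of the transcript whose accession the row carries, from 1224 bases for ALOX5AP to 4514 for PTGS2. PTGES stood at 393 ± 5.11 CPM per kb in EP300 KD1, 609 ± 12.2 in NS1, 404 ± 3.17 in EP300 KD2 and 603 ± 5.48 in NS2, above the other 4 genes in all groups. In EP300 KD1 it was followed by ALOX15B (13.8 ± 0.147), ALOX5AP (3.83 ± 0.135), PTGS1 (3.36 ± 0.479) and PTGS2 (1.91 ± 0.191), where ALOX5AP and PTGS1 lay within their spread. In NS1 the order after PTGES was PTGS1 (5.57 ± 0.306) and ALOX15B (5.48 ± 0.209), which lay within their spread, then ALOX5AP (0.761 ± 0.0809) and PTGS2 (0.401 ± 0.0348). In EP300 KD2, ALOX5AP (2.48 ± 0.0956), ALOX15B (2.13 ± 0.235) and PTGS1 (2.01 ± 0.126) were close, with ALOX15B and PTGS1 within their spread, and PTGS2 was lowest (0.886 ± 0.0359). In NS2, ALOX15B (6.35 ± 0.431) and PTGS1 (4.97 ± 0.425) stood above ALOX5AP (0.444 ± 0.03) and PTGS2 (0.257 ± 0.00957). PTGS2 was thus the least abundant of the 5 per length in every group. The authors' counting unit may hold more sequence than these transcripts.

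The rest of the pathway was taken from a list of 70 other genes, of which 69 had a row and 39 were abundant enough to test. In EP300 KD1 against NS1, 15 of the 39 rose, 17 fell and 7 did not pass, with a median log2 change of -0.07 beside -0.01 over all genes, of which 32.6% rose and 32.3% fell. In EP300 KD2 against NS2, 8 rose, 20 fell and 11 did not pass, with a median of -0.13 beside 0 over all genes, of which 27.9% rose and 29.9% fell (37.1% and 23.4% without TMM factors, 34.5% and 25% with upper-quartile factors). With both hairpins 4 rose, 15 fell and 5 changed in opposite directions, beside 15.3%, 17.3% and 11.2% of all genes. The change with the second hairpin minus that with the first passed edgeR's test for 26 of the 39, of which 9 were higher and 17 lower, beside 50.8% of all genes (21.6% higher and 29.2% lower). Without TMM factors the split was 9 higher and 13 lower, beside 28.2% higher and 23.2% lower of all genes. The 30 untested genes had at most 12 reads in any library, and 7 of them had none at all.

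**Figure D4:**
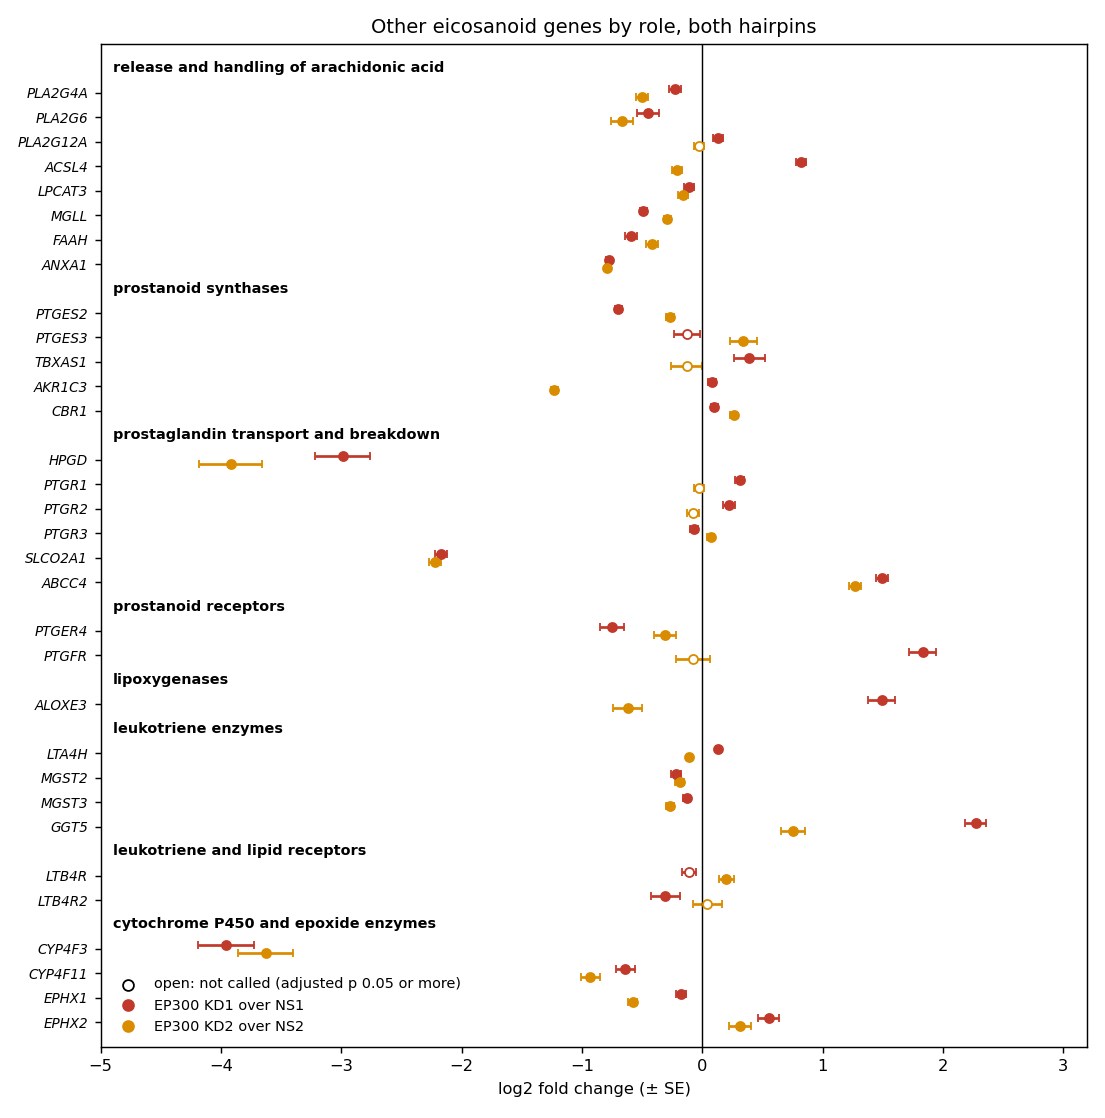
Log2 fold changes with their SE (x axis) of the 32 other eicosanoid genes with at least 1 CPM on average that passed the test with at least 1 hairpin, grouped by role (y axis), for EP300 KD1 over NS1 and EP300 KD2 over NS2. Filled points passed edgeR's adjusted p of 0.05; HPGD, SLCO2A1 and CYP4F3 lie far to the left with both hairpins and ABCC4 to the right.

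Among the 6 tested genes that carry or destroy prostaglandins, 3 rose and 3 fell with the first hairpin, and 2 rose and 2 fell with the second. Beside them, 32.6% of all genes rose and 32.3% fell with the first hairpin, and 27.9% rose and 29.9% fell with the second. HPGD, the dehydrogenase that inactivates prostaglandin E2, fell to 0.160, 0.373 and 0.406 CPM in EP300 KD1, against 2.45, 2.83 and 2.41 in NS1 (log2 -2.99 ± 0.23, edgeR adjusted p = 1e-09). It fell to 0.143, 0.220 and 0.123 CPM in EP300 KD2, against 2.31, 2.26 and 2.98 in NS2 (log2 -3.92 ± 0.26, adjusted p = 1.3e-10). No library overlapped between the sets, and the EP300 shRNA levels rest on 4 to 14 reads each. HPGD has more than 1 accession row in the table, so that reads shared between rows may be missing from its level.

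SLCO2A1, the prostaglandin transporter that takes prostaglandins into cells for breakdown, fell to 9.75, 8.89 and 10.7 CPM in EP300 KD1, against 43.8, 44.7 and 43.4 in NS1, and to 8.37, 8.38 and 8.09 CPM in EP300 KD2, against 36.9, 40.1 and 38.6 in NS2. Its log2 changes were -2.17 ± 0.05 and -2.22 ± 0.05 (edgeR adjusted p = 2.6e-17 and 4e-17), and their difference of -0.05 did not pass (adjusted p = 0.64). ABCC4, an efflux pump that exports prostaglandin E2 among other substrates, rose to 36.5, 36.3 and 38.4 CPM in EP300 KD1, against 12.7, 13.6 and 13.2 in NS1, and to 36.6, 34.8 and 38.2 CPM in EP300 KD2, against 15.2, 14.2 and 15.9 in NS2 (log2 1.49 ± 0.05 and 1.27 ± 0.05, adjusted p = 2.7e-15 and 3.3e-14). The ratio of ABCC4 to SLCO2A1 reads within a library, a pair chosen after the values were seen, was 3.81 ± 0.247 in EP300 KD1 and 0.299 ± 0.00814 in NS1, and 4.42 ± 0.283 in EP300 KD2 and 0.393 ± 0.0326 in NS2 (SD, n = 3 each). SLCO2A1 has several rows, so its level and this ratio may rest on incomplete reads. The reductases of prostaglandin breakdown moved little: PTGR1 and PTGR2 rose by 0.31 and 0.22 on the log2 scale with the first hairpin and had changes of -0.03 and -0.08 with the second, which did not pass, and PTGR3 had -0.07 and 0.07. The call of PTGR2 was lost with both controls pooled (0.13, adjusted p = 0.072).

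**Figure D5:**
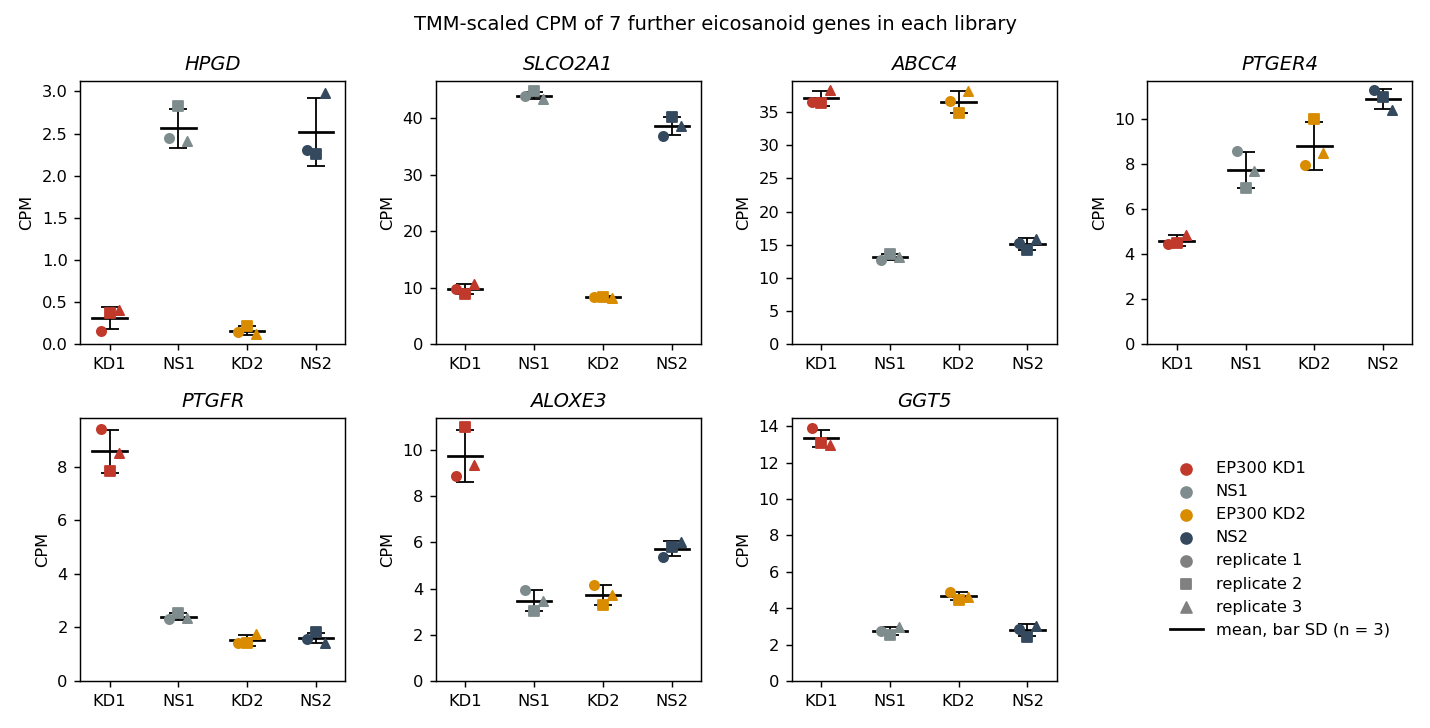
TMM-scaled CPM (y axis, linear) of 7 further genes, chosen after their values were seen, in every library of EP300 KD1, NS1, EP300 KD2 and NS2 (x axis); points are libraries, lines are means and bars the SD over 3 libraries. HPGD and SLCO2A1 are low and ABCC4 high in both EP300 shRNA groups, and PTGFR, ALOXE3 and GGT5 are highest in EP300 KD1.

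Among genes that release or handle arachidonic acid, 3 of 10 tested rose and 6 fell with the first hairpin. With the second, 0 rose and 8 fell. Shares over all genes were 32.6% higher and 32.3% lower with the first hairpin, and 27.9% and 29.9% with the second. The role mixes genes that free the acid with genes that restrain its release or store it, so these counts give no direction for the step. PLA2G4A, the cytosolic phospholipase A2 that feeds the cyclooxygenases, fell to 34.7 ± 1.74 CPM in EP300 KD1, against 40.9 ± 2.67 in NS1, and to 26.8 ± 0.379 in EP300 KD2, against 37.9 ± 0.745 in NS2 (log2 -0.23 and -0.50, edgeR adjusted p = 2e-04 and 2.9e-08). ANXA1, the glucocorticoid-linked annexin that restrains phospholipase A2, fell to 1020 ± 21.9 CPM in EP300 KD1, against 1750 ± 21.0 in NS1, and to 957 ± 16.6 in EP300 KD2, against 1660 ± 34.4 in NS2 (log2 -0.78 and -0.79, adjusted p = 3.7e-16 and 4.2e-16). ACSL4, which activates arachidonic acid for storage in membranes, rose by 0.82 on the log2 scale with the first hairpin and fell by 0.21 with the second (adjusted p = 5.4e-12 and 5.9e-04), and the second call was lost with both controls pooled (-0.13, adjusted p = 0.055). MGLL and FAAH, hydrolases that free arachidonic acid from endocannabinoids, fell with both hairpins, with log2 changes of -0.49 and -0.29 for MGLL and -0.59 and -0.42 for FAAH.

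Of 5 tested prostanoid synthases other than PTGES, 3 rose and 1 fell with the first hairpin and 2 rose and 2 fell with the second. Shares over all genes were 32.6% higher and 32.3% lower with the first hairpin, and 27.9% and 29.9% with the second. PTGES2, a membrane-associated prostaglandin E synthase, fell with both (log2 -0.70 and -0.27, edgeR adjusted p = 5e-13 and 4.4e-07). AKR1C3, an aldo-keto reductase that makes prostaglandin F2alpha, measured 58.6 ± 1.80 CPM in EP300 KD2 and 138 ± 2.24 in NS2 (log2 -1.23, adjusted p = 2.2e-17), whereas its change of 0.08 with the first hairpin was lost without NS1 replicate 1 (adjusted p = 0.064) or EP300 KD1 replicate 1 (adjusted p = 0.055). AKR1C3 shares sequence with other AKR1C genes, so that its counts are uncertain. The prostacyclin and prostaglandin D synthases PTGIS, HPGDS and PTGDS had 1, 0 and 10 reads over all 12 libraries.

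Only 3 of 9 prostanoid receptors could be tested. PTGER4, the EP4 receptor of prostaglandin E2, fell to 4.61 ± 0.230 CPM in EP300 KD1, against 7.74 ± 0.817 in NS1, and to 8.83 ± 1.07 in EP300 KD2, against 10.9 ± 0.455 in NS2 (log2 -0.75 and -0.31, edgeR adjusted p = 2.3e-06 and 0.0070). NS2 was above NS1 for this gene (log2 0.49, adjusted p = 0.00048), and the call with the second hairpin was lost with both controls pooled (-0.08, adjusted p = 0.67) and without EP300 KD2 replicate 1 (-0.23, adjusted p = 0.054). PTGFR, the receptor of prostaglandin F2alpha, rose to 8.59 ± 0.807 CPM in EP300 KD1, against 2.41 ± 0.124 in NS1 (log2 1.83, adjusted p = 4.2e-11), and measured 1.52 ± 0.206 in EP300 KD2 and 1.60 ± 0.197 in NS2 (log2 -0.08, adjusted p = 0.66). The EP2 receptor PTGER2 had 3 to 14 reads per library and did not pass (log2 0.72 and 0.80, adjusted p = 0.13 and 0.21), but passed with the first hairpin with both controls pooled (1.09, adjusted p = 0.027). The prostacyclin receptor PTGIR had 8 reads in EP300 KD1 and 0 in the other 9 libraries and was not tested.

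Beside ALOX15B, only 2 of 5 listed lipoxygenases had counts enough for a test. ALOXE3, the epidermal lipoxygenase that converts hydroperoxides in the skin barrier, rose to 9.73 ± 1.11 CPM in EP300 KD1, against 3.47 ± 0.464 in NS1, and fell to 3.70 ± 0.435 in EP300 KD2, against 5.72 ± 0.330 in NS2 (log2 1.49 and -0.62, edgeR adjusted p = 8.9e-10 and 1.3e-04). Its direction with each hairpin was that of ALOX15B, but the second call was lost with both controls pooled (-0.30, adjusted p = 0.21). ALOX12B, its partner enzyme in the epidermis, had 5 to 25 reads per library and averaged 0.623 ± 0.170 CPM in EP300 KD1 and 0.190 ± 0.0627 in NS1, and 0.184 ± 0.0374 in EP300 KD2 and 0.185 ± 0.0354 in NS2. It rose with the first hairpin (log2 1.70 ± 0.32, adjusted p = 0.00014) and did not pass with the second (-0.03 ± 0.42, adjusted p = 0.96). ALOX12 and ALOX15 had 14 and 15 reads over all libraries.

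Of 6 tested leukotriene enzymes, 2 rose and 2 fell with the first hairpin and 1 rose and 3 fell with the second. Over all genes, 32.6% rose and 32.3% fell with the first hairpin, and 27.9% rose and 29.9% fell with the second. GGT5, a gamma-glutamyl transferase that turns leukotriene C4 into D4, rose to 13.3 ± 0.506 CPM in EP300 KD1, against 2.75 ± 0.203 in NS1, and to 4.65 ± 0.214 in EP300 KD2, against 2.78 ± 0.329 in NS2 (log2 2.27 and 0.75, edgeR adjusted p = 8.1e-14 and 3.2e-06). LTA4H, the hydrolase that makes leukotriene B4, was abundant, at 292 ± 4.49 CPM in EP300 KD1 and 267 ± 0.822 in NS1, and 258 ± 3.18 in EP300 KD2 and 278 ± 3.57 in NS2, and its small changes of 0.13 and -0.11 went in opposite directions; the second was lost with library totals alone (-0.04, adjusted p = 0.14) and with no filter on low counts (-0.06, adjusted p = 0.10). LTC4S, the leukotriene C4 synthase, had 11 to 37 reads per library and did not pass. The cysteinyl leukotriene receptors CYSLTR1 and CYSLTR2 had no read in any library, and the overlapping genes LTB4R and LTB4R2, receptors of leukotriene B4, had log2 changes of at most 0.31 in size.

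Genes of the cytochrome P450 branch and its epoxide hydrolases fell in 3 of 5 cases with each hairpin. Of the 5, 1 rose with the first and 2 with the second. Over all genes, 32.3% fell and 32.6% rose with the first hairpin, and 29.9% fell and 27.9% rose with the second. CYP4F3, an omega-hydroxylase that inactivates leukotriene B4, fell to 0.205 ± 0.110 CPM in EP300 KD1, against 3.32 ± 0.479 in NS1, and to 0.217 ± 0.0503 in EP300 KD2, against 2.73 ± 0.196 in NS2 (log2 -3.96 and -3.63, edgeR adjusted p = 2.3e-11 and 1e-10). The related CYP4F11 had log2 changes of -0.64 and -0.93. Counts of CYP4F genes are uncertain, as they share sequence. EPHX2, the soluble epoxide hydrolase, rose by 0.55 and 0.31 on the log2 scale.

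Genes tied to the control of PTGS2 or PTGES were read from a list of 17, of which 14 were tested: 8 rose and 2 fell with the first hairpin, and 6 rose and 6 fell with the second, with median log2 changes of 0.17 and 0.01 beside -0.01 and 0 over all genes. Of all genes, 32.6% rose and 32.3% fell with the first hairpin and 27.9% rose and 29.9% fell with the second. In either direction, 10 of the 14 were called with the first hairpin and 12 with the second, beside 64.9% and 57.8% of all genes. The list was chosen with earlier results of these data known, so nothing is read from these counts. IL1B, a cytokine inducer of PTGS2, rose with both (log2 3.29 and 0.77, edgeR adjusted p = 5.8e-19 and 2.7e-09), as did EGR1, a transcription factor tied to PTGES, at 174 ± 6.73 CPM in EP300 KD1 and 108 ± 1.13 in NS1, and 165 ± 4.63 in EP300 KD2 and 112 ± 1.95 in NS2 (log2 0.68 and 0.56, adjusted p = 2.6e-13 and 6.3e-12). For IL1B, NS2 lay above NS1 (log2 0.94, edgeR adjusted p = 2.9e-08), a larger gap than its change with the second hairpin. Its calls with both hairpins were kept under all 22 alternatives. JUN and CREB1 also rose with both hairpins, by 0.30 and 0.46 and by 0.24 and 0.14 on the log2 scale. IL1A, the other interleukin-1, measured 76 ± 2.75 CPM in EP300 KD1 and 15.3 ± 1.40 in NS1, and 31.6 ± 0.398 in EP300 KD2 and 36.2 ± 0.595 in NS2. Its log2 changes were 2.32 and -0.19 (adjusted p = 2e-18 and 0.0012), but NS2 lay far above NS1, and with both controls pooled the second turned to 0.31 and lost its call (adjusted p = 0.37). The glucocorticoid-induced TSC22D3 rose by 0.54 and fell by 0.69. CEBPD, a C/EBP factor, rose by 0.37 and fell by 0.45, both on the log2 scale. NFKB1 had log2 changes of 0.11 and 0.07, FOS of -0.08 and -0.74 and ELAVL1, an mRNA-binding protein, of -0.08 and 0.17. Of these, the calls under 0.1 in size were lost without single libraries: NFKB1 with the second hairpin without NS2 replicate 2 or 3 or any EP300 KD2 replicate (adjusted p 0.058 to 0.093), FOS with the first without NS1 replicate 1 or 3 or EP300 KD1 replicate 2 (0.054 to 0.11), and ELAVL1 with the first without NS1 replicate 2 or 3 or EP300 KD1 or EP300 KD2 replicate 1 (0.051 to 0.22). TNF, CEBPB and ATF2 averaged at most 0.139 CPM in any group and were not tested. CEBPB and ATF2 have several rows, so their reads may be incomplete. How the changes of the listed regulators bear on the 5 genes was not tested.

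The genes most like each of the 5 were found by the root mean square distance between log2 CPM values centred on their mean over the 12 libraries, among 11138 genes with at least 1 CPM. These distances follow the 4 groups, since libraries of a group lie close together. PTGES was nearest to PLPP2, a lipid phosphate phosphatase, BLCAP and EMP1 (distances 0.02, 0.03 and 0.03). PTGS1 was nearest to LURAP1L, the epithelial transcription factor EHF and BICDL1 (0.09, 0.10 and 0.13), and PTGS2 to CCDC136, the actin-capping TMOD2 and LRP4 (0.16, 0.18 and 0.18). ALOX5AP was nearest to the secreted glycoprotein FSTL1, the enolase ENO2 and FMNL3 (0.21, 0.23 and 0.26). ALOX15B was nearest to the endocytic receptor LRP1 (0.28) and to FPR1 and TREM1, receptors best known from myeloid cells (0.29 and 0.31). These 3 shared its opposite signs, with log2 changes for the first and second hairpin of 0.98 and -0.95 for LRP1, 1.94 and -1.24 for FPR1 and 1.59 and -1.23 for TREM1.

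Other cell type lists moved in places. The 7 fibroblast markers summed to 67.6 to 72.9 CPM in EP300 KD1 and 16.8 to 18.2 in NS1, and to 21.9 to 23.7 CPM in EP300 KD2 and 13.5 to 14.7 in NS2, while COL1A2, COL3A1 and LUM were at 0 in every library. The 5 mast cell markers summed to at most 0.0922 CPM in any library. The 4 platelet markers summed to 1.66 to 2.34 CPM in EP300 KD1 and 0.817 to 1.04 in NS1, and to 1.11 to 1.81 CPM in EP300 KD2 and 0.738 to 0.980 in NS2, with GP9 at 0 throughout. The 4 endothelial markers summed to 9.43 to 11.2 CPM in EP300 KD1 and 28.7 to 32.6 in NS1, and to 5.33 to 6.04 CPM in EP300 KD2 and 38.2 to 40.5 in NS2, nearly all from PECAM1. Their part in the changes of the 5 genes was not tested.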

How the data were processed

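Messenger RNA of 12 MCF10AT libraries was sequenced after a stranded Illumina TruSeq mRNA preparation, per the labels' protocols. Reads were aligned with HISAT2 2.1.0 to hg38 and counted with featureCounts, per the submitters' processing notes; counter version, annotation release and options for strand or shared reads are not stated in these sources. The authors deposited raw whole-number counts for 29094 RefSeq accessions, with 1 column per library. Symbols came from the RefSeq gene table (28134 rows, GRCh38.p14) and GENCODE (486 rows), and 474 rows had none (0.313% of counts). For listed genes with several rows, the row with most counts was used; reads of such genes may be incomplete.

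Rows were filtered with edgeR's filterByExpr (13424 left), scaled by TMM and fitted with edgeR 4.0.16's quasi-likelihood model (R 4.3.3), in which each group had its own coefficient; p-values were adjusted by Benjamini-Hochberg over all rows, with a threshold of 0.05. Standard errors were derived from the test statistic. CPM use TMM-scaled library sizes. DESeq2 1.42.0, limma 3.58.1 (voom), other scalings, no filter, summed rows, pooled controls, a replicate block and leaving out each library were alternatives. Replicate counts differed beyond sampling noise, with chi-square over its degrees of freedom from 1.81 to 4.31. The fit was also run on simulated counts in which a small set of genes changed in EP300 KD1 only. That run does not cover data in which most genes are called, as here with both hairpins. The 5 genes and all lists were chosen with earlier results of these data known. Named genes are the 5, EP300, listed genes of at least 1 CPM that passed with at least 1 hairpin, regulators that passed with both, and the 3 nearest patterns per gene. Others named, untested or low ones included, were chosen after their values were seen.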

Additional observations from a re-analysis of the deposited data

Results flagged for a closer look

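The hairpins' effects differed for ALOX15B, whose EP300 KD1 libraries all lay above NS1 and whose EP300 KD2 libraries all lay below NS2; the difference of the log2 fold changes was -2.91, and it was not tested because the gene was picked on these contrasts.

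Among the other eicosanoid genes named, the following were taken up because the change with the second hairpin minus that with the first passed edgeR's test at an adjusted p under 0.05. The difference on the log2 scale was -2.11 for ALOXE3, -1.92 for PTGFR, -1.73 for ALOX12B, -1.52 for GGT5, -1.31 for AKR1C3 and -1.03 for ACSL4. It was -0.52 for TBXAS1, -0.40 for EPHX1, -0.34 for PTGR1, -0.29 for PTGR2, -0.29 for CYP4F11, -0.27 for PLA2G4A, -0.23 for LTA4H, -0.22 for ABCC4, -0.16 for PLA2G12A and -0.14 for MGST3. It was 0.47 for PTGES3, 0.44 for PTGER4, 0.42 for PTGES2, 0.31 for LTB4R, 0.20 for MGLL, 0.17 for FAAH, 0.16 for CBR1 and 0.14 for PTGR3. Among the regulators it was -2.51 for IL1A, -2.51 for IL1B, -1.24 for TSC22D3, -0.82 for CEBPD, -0.65 for FOS, -0.12 for EGR1 and 0.25 for ELAVL1.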

How the results depend on the processing

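Log2 fold changes of the 5 genes kept their sign in both hairpin comparisons under all 22 alternatives. For PTGS2 they ran from 2.16 to 2.52 with the first hairpin and from 1.42 to 1.85 with the second, for ALOX5AP from 2.24 to 2.65 and from 2.03 to 2.54, for PTGS1 from -0.86 to -0.66 and from -1.40 to -1.24, for PTGES from -0.64 to -0.61 and from -0.58 to -0.50, and for ALOX15B from 1.23 to 1.37 and from -1.65 to -1.47. The count of pathway genes called ran from 30 to 35 for EP300 KD1 against NS1, from 25 to 29 for EP300 KD2 against NS2 and from 19 to 26 for the difference, and leaving out a library gave 30 to 33, 26 to 29 and 23 to 26. These counts do not all share 1 denominator. The 35 came with no filter on low counts, where 62 pathway genes were tested instead of 39. In that setting 9041 of all 19850 genes were called with the first hairpin and 8103 with the second. With the replicate block 32, 28 and 25 pathway genes were called, against 32, 28 and 26 without it. Among the named results the block ended only the call of the difference for CYP4F11 (-0.29, edgeR adjusted p = 0.054). Deviations of same-numbered libraries from their group means showed no correlation (-0.04 to 0.02 in 6 pairs of a hairpin and its control). With so few pairs this cannot exclude that libraries of the same number belong together. Of 64 results of named pathway genes with either hairpin, 46 kept their side of the threshold throughout; PTGR3 with the first hairpin lost its call under 9 alternatives and LTB4R2 under 5. Of 32 differences 23 kept theirs; CYP4F11 lost its call under 16 of 20, FAAH and MGST3 under 7 each. Among the regulators, the change of IL1A with the second hairpin turned to 0.31 with both controls pooled, and the difference for EGR1 lost its call under 11 of 20. The causes were not tested. Low counts limit the precision for HPGD, CYP4F3, PTGER2, ALOX12B and LTC4S, and in the controls for ALOX5AP and PTGS2.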
